A study of Danio rerio with 15 samples.

Results

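The genes saa and irg1l are 2 of the 5686 genes in the deposited expression table of the injured zebrafish kidney, and they were picked out by gene name. Both were chosen on measured values of these same samples, saa for its rise from uninjured kidneys to 5 days post injury (dpi) and irg1l for its rise from uninjured kidneys to 7 dpi. Every comparison of saa or irg1l with uninjured kidneys is therefore given as a description, with no test. Kidney RNA came from AB zebrafish, the wild-type strain of the study, at 6 months of age. The 5 groups of 3 samples were uninjured kidneys and kidneys at 1, 3, 5 and 7 dpi. Acute kidney injury (AKI) was caused by gentamicin, an antibiotic toxic to kidney tubules, which was injected into the body cavity, and only fish that excreted protein at 1 dpi were kept. Each group is described by the study as having 3 biological replicates, and whether 1 sample is 1 kidney or a pool of several is not stated in the sources used here. The uninjured fish are not stated to have received a sham injection, so injection, drug and injury cannot be told apart.

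Serum amyloid A (Saa) is a small secreted lipid-binding protein of the acute phase response. In mammals its gene is switched on in liver and in epithelia by the cytokines interleukin 1, interleukin 6 and tumour necrosis factor. In mammals, immune-responsive gene 1 is the enzyme cis-aconitate decarboxylase, which macrophages switch on during inflammation and which turns cis-aconitate, an intermediate of the citrate cycle, into itaconate. The zebrafish table lists 2 genes of this family, irg1 and irg1l ("immunoresponsive gene 1, like").

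The gene saa (ENSDARG00000045999) lies on the plus strand at chr7:12688763-12703714 of build GRCz11, the build named in the submitters' processing notes, and carries the serum amyloid A domain. The gene irg1l (ENSDARG00000062788) lies on the minus strand at chr14:11121038-11124596. In the annotation of the table both irg1 and irg1l belong to the MmgE/PrpD protein family and have human cis-aconitate decarboxylase as their best database match. The alignment score of that match was 57.8 for irg1l against 486 for irg1 (ENSDARG00000069844), so the name of the enzyme rests on a much stronger match for irg1, and irg1 is described beside irg1l throughout. The lengths over which reads were counted, recovered from the values, were 708 bases for saa and 2509 bases for irg1l.

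Expression was deposited as FPKM, read pairs scaled by the length of the gene and the size of the library, so levels can be set side by side between genes. The libraries held between 13876000 and 16368000 reads, recovered from the steps between low FPKM values. At this depth 1 read of saa was worth about 0.1 FPKM. The table is not a full transcriptome, and between 0.0704% and 36.3% of its genes passed the test in the comparisons below. Its genes appear to have been selected for differing between groups, by a rule not known here. Every share of genes called and every limma adjusted p therefore holds within this table, not for all genes of the genome. As a check of the tissue, 18 markers of kidney tubules and podocytes summed to between 1548 and 4100 FPKM in uninjured kidneys and between 447 and 1693 FPKM after injury. Some libraries stood apart in 21 ovary markers, which summed to 1890 and 2988 FPKM in uninjured samples 1 and 3, 959 FPKM in 1 dpi sample 2 and 1511 FPKM in 5 dpi sample 1, against 3.94 to 433 FPKM in the other samples. Tests of saa and irg1l that rest on those libraries are given with and without them, and for the other genes the calls lost without a library are counted after the lists.

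The level of saa peaked at 5 dpi. In uninjured kidneys saa stood at 0.407, 1.12 and 2.09 FPKM, from 4, 12 and 21 reads. At 1 dpi it stood at 4.94, 8.93 and 10.8 FPKM, all 3 above every uninjured sample. At 3 dpi the samples held 3.39, 2.98 and 1.43 FPKM, and these overlapped the uninjured range. At 5 dpi the samples held 67.0, 216 and 46.6 FPKM, from 675, 2507 and 503 reads. Every 5 dpi sample lay above all 12 samples of the other groups, and the highest was 4.65 times the lowest. At 7 dpi the samples held 8.16, 11.7 and 1.49 FPKM, so 2 samples lay within or just above the 1 dpi range and the third lay in the uninjured range.

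In group means, saa was at 1.21 ± 0.843 FPKM (SD, n = 3) in uninjured kidneys. The means at 1, 3, 5 and 7 dpi were 8.22 ± 2.99, 2.60 ± 1.03, 110 ± 92.7 and 7.11 ± 5.18 FPKM (each SD, n = 3). The means were 6.82, 2.16, 91.2 and 5.9 times the uninjured mean at 1, 3, 5 and 7 dpi. On the log2(FPKM + 1) scale the differences were 2.08, 0.74, 5.41 and 1.66, which placed saa 242nd, 722nd, 1st and 53rd from the top of 5685 genes. These differences come from the contrasts behind the choice of saa and carry no test. The order of the group means was 5 dpi, 1 dpi, 7 dpi, 3 dpi and uninjured, and in this order 1 and 7 dpi, 7 and 3 dpi, and 3 dpi and uninjured overlapped, while 5 dpi overlapped no other group.

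**Figure D1:**
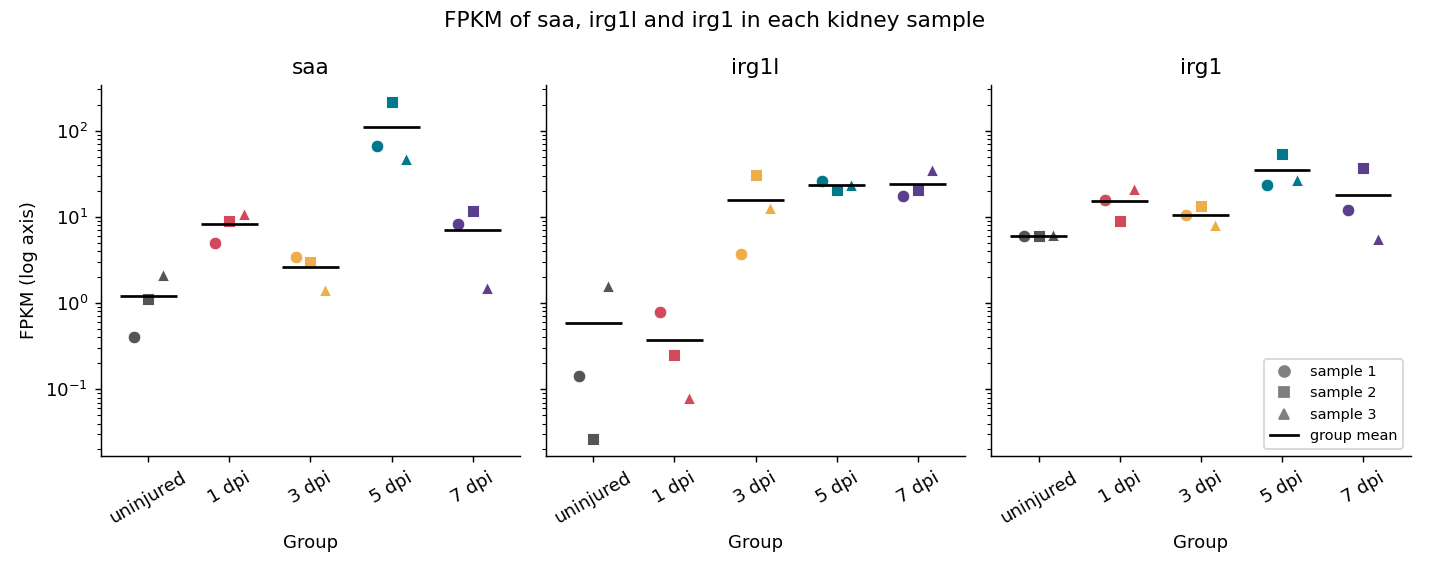
FPKM on a log axis of saa, irg1l and irg1 in each kidney sample, in 5 groups of 3; the symbol gives the sample number and the black line the group mean. The 5 dpi samples of saa lie between 46.6 and 216 FPKM, above every other sample, while irg1l stays at or below 1.57 FPKM in uninjured and 1 dpi samples and at or above 3.66 FPKM from 3 dpi on.

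The level of irg1l stayed low through 1 dpi and was high from 3 dpi on. In uninjured kidneys irg1l stood at 0.144, 0.0264 and 1.57 FPKM, from 5, 1 and 56 reads, so 1 uninjured sample was under a floor of 3 reads. At 1 dpi the samples held 0.786, 0.249 and 0.0788 FPKM, all below the highest uninjured sample. At 3 dpi they held 3.66, 30.3 and 12.7 FPKM. The lowest 3 dpi sample was above all 6 samples of the earlier groups, and the 3 dpi samples spanned an 8.29-fold range. At 5 dpi the samples held 25.7, 20.5 and 23.7 FPKM, which was the tightest group of irg1l, with a 1.26-fold range. At 7 dpi they held 17.3, 20.3 and 34.7 FPKM, and the ranges at 3, 5 and 7 dpi overlapped each other.

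The group mean of irg1l was 0.580 ± 0.860 FPKM (SD, n = 3) in uninjured kidneys. At 1, 3, 5 and 7 dpi the means of irg1l were 0.371 ± 0.369, 15.6 ± 13.6, 23.3 ± 2.67 and 24.1 ± 9.32 FPKM (each SD, n = 3). The means were 0.64, 26.8, 40.1 and 41.5 times the uninjured mean at 1, 3, 5 and 7 dpi. On the log2(FPKM + 1) scale the differences from uninjured kidneys were -0.11, 3.12, 4.07 and 4.06, and irg1l ranked 2925th, 19th, 3rd and 1st of 5685 genes. They too carry no test. In the order of the means, 7, 5 and 3 dpi could not be separated by their ranges, nor could uninjured and 1 dpi, and a gap from 1.57 to 3.66 FPKM lay between both sets.

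Differences between injured groups that did not enter the choice were tested with limma, a linear model fitted across all 5685 genes with at least 3 samples above 0 FPKM, with p-values adjusted over all of them by the Benjamini-Hochberg method. From 1 to 3 dpi, where 23.9% of all genes passed a limma adjusted p of 0.05, saa fell by 1.34 on the log2(FPKM + 1) scale (SE 0.36, limma adjusted p = 0.04), with all 3 samples at 3 dpi below all 3 at 1 dpi. This call was narrow. It was lost with a replicate block (limma adjusted p = 0.076), with median-of-ratios scaling (0.054), with quantile normalization (0.059), in the fit on all 15 samples (0.12), and without 1 dpi sample 2 (0.098), 1 dpi sample 3 (0.081), 3 dpi sample 1 (0.07), 3 dpi sample 2 (0.091) or 3 dpi sample 3 (0.11). Of these, 1 dpi sample 2 is the library with ovary transcripts, and the difference was -1.26 without it. The median difference of all genes from 1 to 3 dpi was -0.20, and -0.02 after quantile normalization, where saa was at -1.06.

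Between 7 and 1 dpi, where 36.3% of all genes passed, the log2 difference of saa was -0.42 (SE 0.62, 95% interval -1.89 to 1.05, limma adjusted p = 0.63). Between 7 and 3 dpi, where 16.7% passed, it was 0.92 (SE 0.60, 95% interval -0.50 to 2.35, limma adjusted p = 0.3). Neither difference was larger than the spread between samples, and both intervals reach beyond a 2-fold change, so they do not show equal levels. Single samples moved both. The difference from 1 dpi was 0.28 without 7 dpi sample 3 and -0.89 without 7 dpi sample 2, and the difference from 3 dpi was 1.63 (limma adjusted p = 0.053) and 0.45 without the same samples. Without 1 dpi sample 2, the library with ovary transcripts, the difference from 1 dpi was -0.34 (limma adjusted p = 0.72). Between 7 and 3 dpi 19 of 21 ovary markers were higher at 7 dpi, with sums of 249 to 433 FPKM against 3.94 to 21.6 FPKM, and their part in this comparison was not tested.

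From 1 to 3 dpi irg1l rose by 3.23 on the log2(FPKM + 1) scale (SE 0.66, limma adjusted p = 0.019), in the direction opposite to saa and higher in 3 of 3 samples, where the same 23.9% of genes passed. The adjusted p was 0.052 without 1 dpi sample 2 and 0.066 without 3 dpi sample 3, with rises of 3.18 and 3.17. Without 3 dpi sample 2 the rise was 2.57 (limma adjusted p = 0.041). That sample held 1177 FPKM of pancreas markers, and 1 dpi samples 1 and 2 held 882 and 769 FPKM. The other 1 and 3 dpi samples held 249 to 460 FPKM. The part of these markers in the rise was not tested. With every sample kept, the rise was 4.90 with a pseudocount of 0.1 and 5.37 with voom on recovered reads. From 1 to 5 dpi, where 32% of genes passed, irg1l rose by 4.17 (SE 0.27, limma adjusted p = 0.00056), again in 3 of 3 samples. Without 1 dpi sample 2 this rise was 4.12 (limma adjusted p = 0.0041) and without 5 dpi sample 1, the other library with ovary transcripts, 4.1 (limma adjusted p = 0.0031). Between these time points 4 of 19 pancreas markers were lower at 5 dpi, and their part was not tested. Between 5 and 3 dpi, where 0.0704% of genes passed, the log2 difference of irg1l was 0.94 (SE 0.66, 95% interval -0.68 to 2.56, limma adjusted p = 0.48), within the spread of the 3 dpi samples. It was 0.23 without 3 dpi sample 1, 1.6 without 3 dpi sample 2 and 0.87 without 5 dpi sample 1 (limma adjusted p = 0.58 for the last).

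The gene irg1, whose annotation as the itaconate enzyme is the stronger, was measured in every sample. Uninjured kidneys held 5.97, 5.92 and 6.23 FPKM of irg1, with SD 0.162 around a mean of 6.04. At 1 dpi the samples held 15.5, 9.04 and 21.3 FPKM and at 3 dpi 10.4, 13.4 and 7.98 FPKM, all above the uninjured samples. At 5 dpi they held 23.1, 54.0 and 26.4 FPKM and at 7 dpi 12.1, 36.5 and 5.49 FPKM. The 5 dpi level of irg1 was above uninjured kidneys by 2.23 on the log2(FPKM + 1) scale (SE 0.33, limma adjusted p = 0.023). Without 1 of the 6 samples this adjusted p ranged from 0.043 to 0.076. Among these 6 fits, the 1 without 5 dpi sample 1 passed. The differences at 1, 3 and 7 dpi were 1.14, 0.69 and 1.07, with limma adjusted p = 0.054, 0.089 and 0.26. So irg1, like saa, had its highest mean at 5 dpi, and unlike irg1l it was present at several FPKM before injury.

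How saa and irg1l went together depended on whether groups or samples within a group were compared. Over all 15 samples Pearson's r of their log2(FPKM + 1) was 0.42 and Spearman's rho 0.35, and over the 12 injured samples r was 0.18 and rho 0.02. These are descriptions of samples that fall into groups. After the group means were removed, r was -0.23 and rho -0.27 (exact permutation test of irg1l within groups, two-sided, p = 0.32 and p = 0.34, 7776 permutations). No relation within groups was detected with 15 samples. The value of r ranged from -0.07 to -0.38 when each group was left out, and without the uninjured group rho was -0.67 (exact permutation p = 0.021) while r was -0.38 (exact permutation p = 0.12). At 1 dpi the sample with the most saa had the least irg1l and the reverse, and at 7 dpi the sample with the least saa (1.49 FPKM) had the most irg1l (34.7 FPKM). Without both samples farthest from the median of saa, 5 dpi samples 1 and 2, r within groups was again -0.23.

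The ratio of saa to irg1l showed the change of order between time points. At 1 dpi saa was 6.29 to 137 times as high as irg1l in FPKM, and at 3 dpi the ratio was 0.0983 to 0.928, below 1 in 3 of 3 samples. At 5 dpi the ratio was 1.97 to 10.6 and at 7 dpi 0.043 to 0.577. Uninjured samples spanned 1.33 to 42.5, with saa at 4 to 21 reads. The 137 rests on 3 reads of irg1l and the 42.5 on 1 read, so both ratios are uncertain. Between saa and irg1, by contrast, r was 0.88 over 15 samples, 0.84 over the 12 injured samples and 0.76 within groups, and 5 dpi sample 2 had the most of both.

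**Figure D2:**
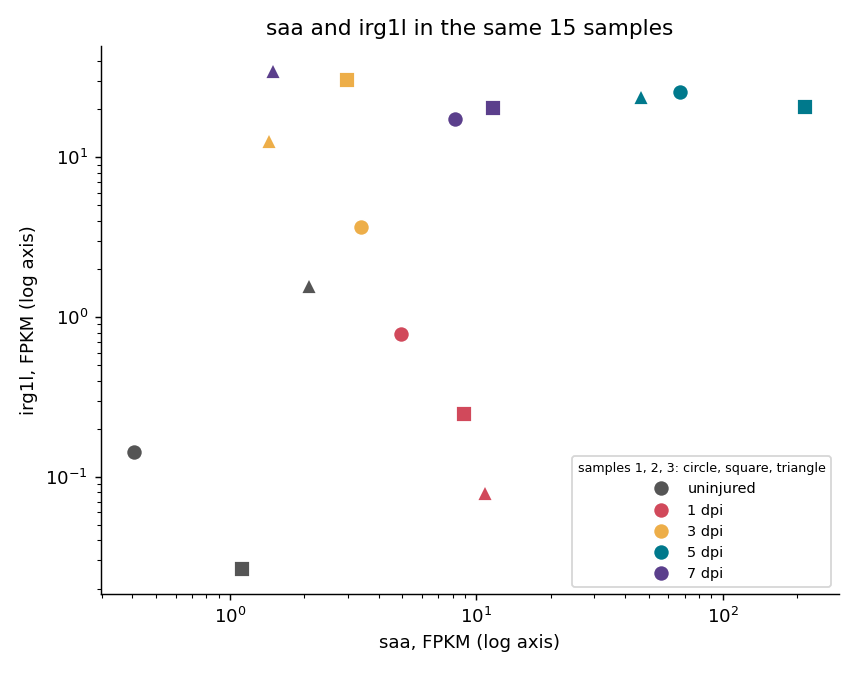
FPKM of irg1l against FPKM of saa in the 15 kidney samples, both on log axes; colours give the group and symbols the sample number. The 1 dpi samples hold 4.94 to 10.8 FPKM of saa with at most 0.786 FPKM of irg1l, the 3 and 7 dpi samples at least 3.66 FPKM of irg1l with 1.43 to 11.7 FPKM of saa, and the 5 dpi samples are high in both.

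The genes whose patterns were most like each member were found by Pearson's r of log2(FPKM + 1) over the 15 samples, among 3360 genes with a mean of at least 1 FPKM and a named symbol. For saa these were nos2b, which makes nitric oxide (r = 0.91), dicp2.2, a receptor-like protein with immunoglobulin domains (0.90), grn2, a granulin (0.90), card9, an adaptor of innate immune signalling (0.89), trim35-10, of the TRIM family (0.88), and irg1 (0.88). All 6 had their highest mean at 5 dpi. The mean of nos2b was 15.2 ± 7.72 FPKM at 5 dpi (SD, n = 3) and between 0.522 and 1.11 FPKM in the other groups. That of grn2 was 52.7 ± 19 FPKM at 5 dpi (SD, n = 3), and between 5.88 and 24.1 FPKM elsewhere. Within groups these 6 genes had r between 0.53 and 0.76 with saa. Their r with irg1l over 15 samples was between 0.41 and 0.65, where saa itself had 0.42. The genes were chosen by r with saa over the same samples, so both ranges follow in part from the choice. Among all 5685 genes tested irg1 ranked 11th and irg1l 579th in likeness to saa.

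For irg1l the 6 genes were plod2, a collagen lysyl hydroxylase (r = 0.95), stk33, a kinase (0.94), aldh1a2, which makes retinoic acid (0.94), loxl2b, a lysyl oxidase that crosslinks collagen (0.94), mxra8b, named for matrix remodelling (0.93), and inhbb, an activin subunit (0.93). Their group means spanned narrower ranges than those of irg1l. The mean of plod2 was 1.73 ± 0.336 FPKM in uninjured kidneys and 6.78 ± 1.05 FPKM at 5 dpi, and that of aldh1a2 7.51 ± 2.18 and 26.3 ± 4.88 FPKM (each SD, n = 3). Within groups their r with irg1l was 0.42 to 0.79, and with saa over all samples it was 0.23 to 0.50. In likeness to irg1l, saa ranked 1249th and irg1 1265th of all genes tested. As these genes were chosen for their likeness, their levels and every r given for them are a description.

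**Figure D3:**
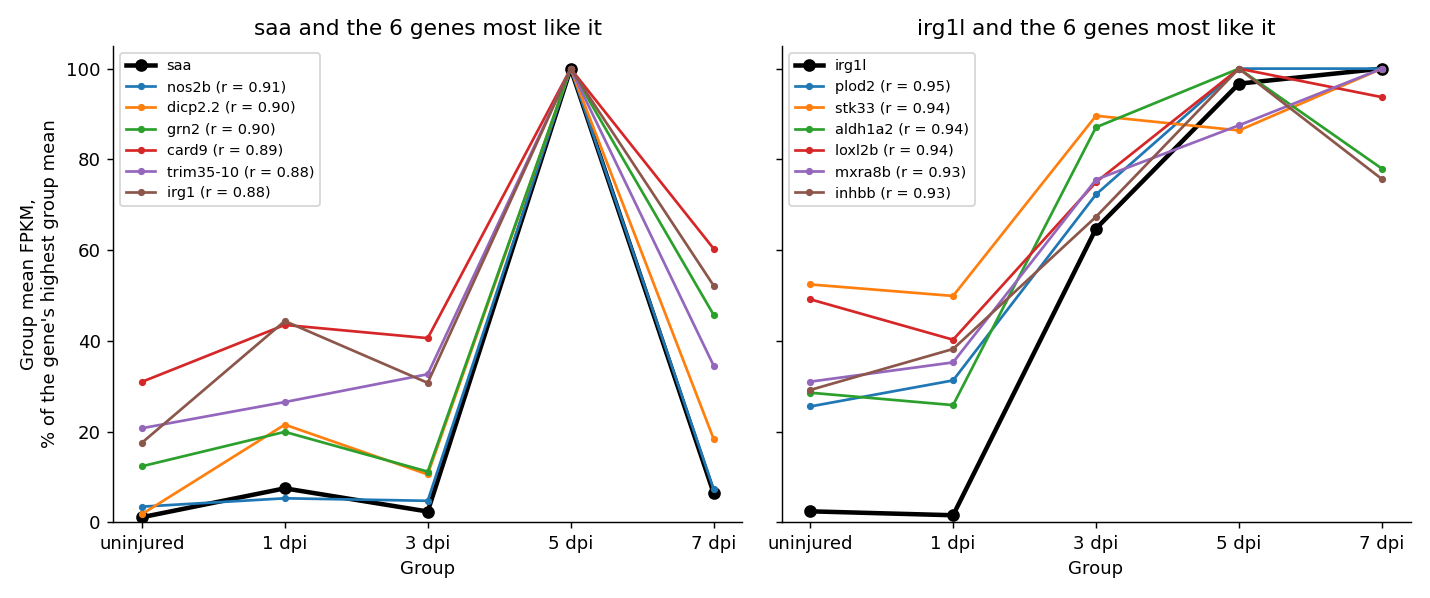
Group means of FPKM as a percentage of each gene's highest group mean, for saa (left) and irg1l (right) in black and the 6 genes most like each in colour, with r over 15 samples in the legend. The left panel peaks at 5 dpi for all 7 genes, and in the right panel the means of all 7 are higher at 3, 5 and 7 dpi than at 1 dpi or in uninjured kidneys.

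The 3 listed genes nearest to irg1l on chromosome 14 were looked at for their position after the values of irg1l had been seen. The nearest, si:ch211-153b23.3, lies on the plus strand at chr14:11124782-11132075, head to head with irg1l and 185 bases from it, and carries the domain of threonylcarbamoyl-AMP synthases. Its group means were 0.236, 0.495, 10.9, 17.5 and 16.1 FPKM from uninjured kidneys to 7 dpi. Its r with irg1l was 0.99 over 15 samples, the highest of all genes tested, and 0.97 within groups. The gene si:ch211-153b23.4, 19887 bases away and of the same family, had means of 0.402, 4.43, 11.8 and 12.5 FPKM from uninjured kidneys to 5 dpi and r = 0.87. It ranked 41st in likeness to irg1l, with r = 0.71 within groups. The gene si:ch211-153b23.5, 26889 bases away and annotated as a mitochondrial ES1 protein homolog, had means of 4.05, 34.8, 79.5, 69.4 and 65.2 FPKM and r = 0.82, and it ranked 113th, with r = 0.55 within groups. At 1 dpi the means of these 2 genes were 11 and 8.59 times the uninjured means, where that of irg1l was 0.64 times. At 1 dpi si:ch211-153b23.5 was already at 85.8 FPKM in sample 1, in which irg1l was at 0.786 FPKM, the highest of its group. The coordinates do not overlap. The strand setting of the read counting was not given in the sources used here, and reads of the similar genes si:ch211-153b23.3 and si:ch211-153b23.4 may have been split between them, so their values are uncertain. The only listed neighbour of saa that was looked at, sh3gl3a at 32371 bases, had r = 0.23 with saa.

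**Figure D4:**
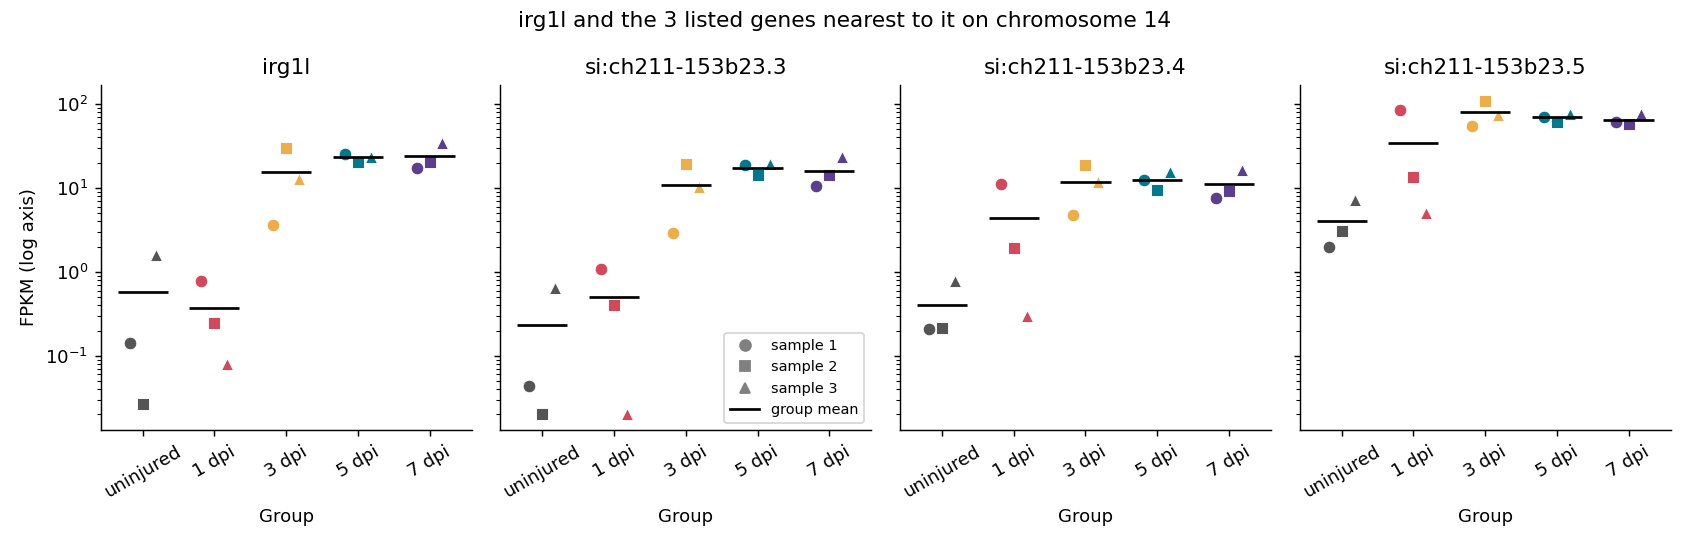
FPKM on a log axis of irg1l and the 3 listed genes nearest to it on chromosome 14, in each sample; the symbol gives the sample number and the black line the group mean. In all 4 panels each sample from 3 dpi on lies above all uninjured samples, and only si:ch211-153b23.4 and si:ch211-153b23.5 have a 1 dpi sample at the level of the later groups.

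Genes around saa and irg1l were then counted in lists by role, each time point against uninjured kidneys with limma, without the members themselves. Of all 5685 genes tested, 12.9% were higher and 6.9% lower at 1 dpi, 6.4% and 6.91% at 3 dpi, 6.7% and 1.46% at 5 dpi, and 4.78% and 12.4% at 7 dpi. The split depended on scaling: of the genes called, 48.1% were higher at 3 dpi and 27.9% at 7 dpi, against 59.9% and 47.1% with median-of-ratios scaling and 70.4% and 62.5% with quantile normalization, which moved the median of all genes from -0.13 to 0.08 and from -0.22 to -0.06. Among 34 inducers and regulators of the acute phase response, 17 were higher and 1 lower at 1 dpi, 4 and 0 at 3 dpi, 12 and 0 at 5 dpi, and 4 and 1 at 7 dpi. Their median log2 differences were 1.3, 0.57, 0.74 and 0.49, beside -0.09, -0.13, -0.09 and -0.22 over all genes. The transcription factor gene cebpb was higher at all 4 time points, by 2.42, 0.88, 1.09 and 0.79 (limma adjusted p = 0.00062, 0.049, 0.034 and 0.034). The cytokine gene il11a was higher by 3.25 at 3 dpi, 1.66 at 5 dpi and 0.65 at 7 dpi (limma adjusted p = 0.0084, 0.021 and 0.039). The NF-kappaB inhibitors tnfaip3 and nfkbiaa were higher by 2.65 and 2.60 at 1 dpi and by 1.07 and 1.29 at 5 dpi (limma adjusted p = 0.0019, 0.002, 0.044 and 0.041). Without 1 of the samples, the number of these genes that passed as higher was 13 to 19 at 1 dpi. It was 1 to 4 at 3 dpi and 0 to 4 at 5 and at 7 dpi. The calls of tnfaip3 and nfkbiaa at 5 dpi were lost in all 6 such fits. Those of cebpb at 3, 5 and 7 dpi and of il11a at 5 and 7 dpi were each lost in 5.

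The cytokines known to induce SAA in mammals were singled out after their values had been seen. The level of il1b was 1.5, 6.86, 2.39, 7.46 and 3.18 FPKM in group means from uninjured kidneys to 7 dpi, higher by 1.56 at 1 dpi and 1.74 at 5 dpi (limma adjusted p = 0.035 and 0.026). The level of il6 was 1.3 ± 0.392 FPKM at 5 dpi against 0.0971 ± 0.0952 in uninjured kidneys (SD, n = 3), a log2 difference of 1.06 (limma adjusted p = 0.023), and that of tnfa 4.62 ± 1.93 against 0.426 ± 0.218 FPKM (SD, n = 3), a difference of 1.93 (limma adjusted p = 0.025). Neither il6 nor tnfa passed at another time point (limma adjusted p = 0.12, 0.67 and 0.17 for il6, and 0.39, 0.1 and 0.12 for tnfa, at 1, 3 and 7 dpi), and il1b did not pass at 3 or 7 dpi (0.17 and 0.19). Of the 6 fits without 1 sample, the 5 dpi call was lost in 5 for il6 and in 6 for tnfa and il1b, and the 1 dpi call of il1b in 4. Over 15 samples r with saa was 0.82 for il1b, 0.82 for il6 and 0.81 for tnfa. With irg1l it was 0.15, 0.38 and 0.63. These r include the samples on which saa and irg1l were chosen, and values within groups are not given, so they are a description. Every r over the 15 samples for the lists below is likewise a description.

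Among 35 chemokines, proteases and enzymes of inflammation, 7 were higher and 0 lower at 1 dpi, 13 and 2 at 3 dpi, 19 and 1 at 5 dpi, and 14 and 1 at 7 dpi, with median log2 differences of 0.42, 0.73, 1.18 and 0.78. The chemokine gene ccl34a.4 was higher by 3.54, 2.25, 2.69 and 2.06 at 1, 3, 5 and 7 dpi (limma adjusted p = 0.00051, 0.023, 0.025 and 0.017), and the chemokine receptor gene ccr9a by 1.41, 1.82, 2.64 and 1.82 (limma adjusted p = 0.021, 0.021, 0.018 and 0.019). The chemokine gene cxcl18b was higher by 2.53, 1.79, 1.51 and 0.88 (limma adjusted p = 0.0081, 0.037, 0.026 and 0.032), and CXCL8, the neutrophil-attracting interleukin 8, by 2.25, 1.41, 2.33 and 1.70 (limma adjusted p = 0.016, 0.034, 0.028 and 0.047). Of the 6 fits without 1 of the samples, 0, 4, 5 and 3 lost the call of ccl34a.4 at 1, 3, 5 and 7 dpi. For ccr9a the numbers were 3, 3, 4 and 4, for cxcl18b 0, 4, 5 and 5, and for CXCL8 2, 4, 6 and 6. In such fits the genes of this list that passed as higher numbered 3 to 7, 1 to 13, 0 to 10 and 0 to 16. With every sample kept, 12.9%, 6.4%, 6.7% and 4.78% of all genes were higher.

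Few other acute phase and plasma proteins passed against uninjured kidneys. Of 23 tested, 2, 0, 1 and 3 were higher at 1, 3, 5 and 7 dpi, while 0, 1, 0 and 1 were lower. Of all genes 12.9%, 6.4%, 6.7% and 4.78% were higher, and counts as low as these cannot be set apart from such shares. The medians were -0.06, -0.70, -0.52 and -0.20. The mean log2(FPKM + 1) of the list was 3.06, 1.43 and 1.46 in uninjured samples 1, 2 and 3. After injury it was 1.67 to 2.28, 1.32 to 1.58, 1.62 to 1.91 and 1.77 to 2.04 at these time points. The part of uninjured sample 1 in the medians was not tested. The gene called at 5 dpi was cp, for the copper carrier ceruloplasmin, with differences of 2.39 there and 1.48 at 7 dpi (limma adjusted p = 0.021 and 0.048). The peptidoglycan recognition protein gene pglyrp6 was higher by 2.78 at 1 dpi (limma adjusted p = 0.0028) and haptoglobin, hp, by 1.35 at 7 dpi (limma adjusted p = 0.016). The complement gene c3a.6 had differences of -1.79 and -1.53 at 3 and 7 dpi (limma adjusted p = 0.013 and 0.02). The median r with saa over this list was -0.20. The 29 liver markers summed to 192 to 375 FPKM at 5 dpi, when saa was highest, and to 1231 FPKM in uninjured sample 1 alone, with 270 and 253 FPKM in uninjured samples 2 and 3. The 19 pancreas markers summed to 882 and 769 FPKM in 1 dpi samples 1 and 2 and to 1177 FPKM in 3 dpi sample 2. Among uninjured kidneys, sample 1 also stood apart in these markers, at 875 FPKM against 182 and 246 FPKM. The fibrinogen gene fga, made in liver, was at 16.8 FPKM in that sample and at 0.548 and 0.829 FPKM in the other uninjured samples. At 5 dpi it was at 0.165 ± 0.129 FPKM (SD, n = 3), which did not pass the test (limma adjusted p = 0.28). Of the 29 liver markers 1, again cp, was higher and 2 were lower at 5 dpi. Several genes, cp and fga among them, are in both the liver and the acute phase list, so these lists are not separate counts.

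Of 8 genes of the itaconate route and the citrate cycle tested beside irg1l, 3, 2, 0 and 3 were lower at 1, 3, 5 and 7 dpi, and irg1 at 5 dpi was the 1 gene that passed as higher at any time point. The lower genes included pck2, which takes oxaloacetate to phosphoenolpyruvate, with differences of -1.41, -0.96 and -1.23 at 1, 3 and 7 dpi (limma adjusted p = 0.018, 0.049 and 0.024). The pyruvate carboxylase gene pcxb was lower at 3 and 7 dpi, with differences of -1.15 and -1.36 (limma adjusted p = 0.036 and 0.032), and the aconitase gene aco1 at 1 and 7 dpi, with -1.32 and -1.21 (limma adjusted p = 0.019 and 0.027). The list medians were -0.70, -0.93, -0.53 and -0.90. Of the 18 kidney tubule and podocyte markers, 6, 6, 2 and 9 were lower and 1, 0, 2 and 2 higher at the same time points, with medians of -0.70, -1.07, -1.1 and -1.26. Their part in the levels of the citrate cycle genes was not tested. The call of pck2 at 3 dpi was lost in all 6 fits without 1 of the samples.

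Nrf2 and Atf3 are stress regulators through which itaconate acts in mammalian macrophages. Of 18 such regulators and their targets, 8, 5, 2 and 0 were higher at 1, 3, 5 and 7 dpi. At the same time points 2, 1, 0 and 2 were lower. At 1 dpi irg1l overlapped uninjured kidneys. The mean of irg1 was then 15.3 FPKM against 6.04 FPKM, with all 3 samples above every uninjured sample (limma adjusted p = 0.054). The part of irg1l or irg1 in the levels of these regulators was not tested. The gene atf3 was higher by 7.18, 3.54 and 2.01 at 1, 3 and 5 dpi (limma adjusted p = 0.00016, 0.0084 and 0.018). The stress gene ddit3 was higher by 3.63 at 1 dpi and 0.83 at 3 dpi (limma adjusted p = 0.00063 and 0.026), and the autophagy receptor gene sqstm1 by 3.03 and 1.54 (limma adjusted p = 0.0011 and 0.027). The glycolysis gene gapdh was lower at 1, 3 and 7 dpi, with differences of -1.25, -1.61 and -0.95 (limma adjusted p = 0.017, 0.02 and 0.034). The median r with irg1l over this list was -0.38, beside -0.20 over all genes.

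**Figure D5:**
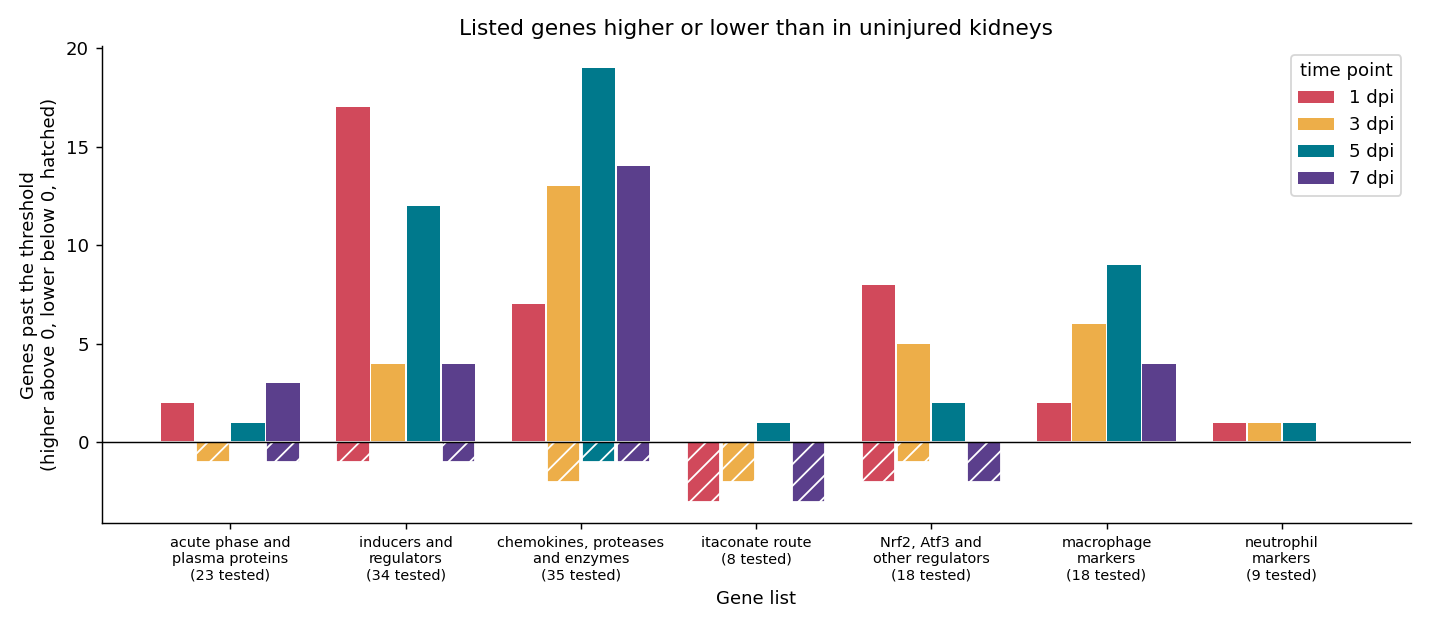
Number of genes of each list with a limma adjusted p below 0.05 against uninjured kidneys, higher above 0 and lower below 0 (hatched), at 1, 3, 5 and 7 dpi in colour; the number tested stands under each list. Inducers and regulators count 17 higher at 1 dpi and 12 at 5 dpi, and chemokines, proteases and enzymes reach 19 at 5 dpi.

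Some macrophage markers also passed as higher after injury, and few neutrophil markers did. Of 18 macrophage markers, 2, 6, 9 and 4 were higher at 1, 3, 5 and 7 dpi and 0 were lower, beside 12.9%, 6.4%, 6.7% and 4.78% of all genes higher. Without 1 sample the macrophage markers that passed as higher numbered 2, 0 to 6, 0 to 4 and 0 to 3. Their summed level was 1991 to 2684 FPKM in uninjured kidneys, then 3754 to 4976, 3665 to 3786, 4198 to 4975 and 3221 to 5438 FPKM, and no macrophage marker was at 0 in any sample. At 1 dpi the sum held 1948 FPKM of hmox1a, a stress-inducible gene that was at 63.4 FPKM in uninjured kidneys. The genes cmklr1, ctss2.2 and ms4a17a.11 passed at 3, 5 and 7 dpi, with differences at 5 dpi of 2.17, 1.31 and 1.19 (limma adjusted p = 0.015, 0.018 and 0.03), and cd74a at 5 and 7 dpi (1.1 and 0.91, limma adjusted p = 0.046 at both). The defining macrophage gene mpeg1.1 had means of 54.4, 48.6, 75.1, 101 and 107 FPKM and passed at no time point (limma adjusted p = 0.57, 0.11, 0.082 and 0.12). Median r over 15 samples for the macrophage list was 0.50 with saa and 0.66 with irg1l, against -0.03 and -0.20 over all genes. Within groups the summed macrophage level had r = 0.49 with saa and 0.06 with irg1l. For the summed neutrophil level the values within groups were 0.43 and -0.04. The 9 neutrophil markers summed to 811 to 1074 FPKM in uninjured kidneys. At 1, 3, 5 and 7 dpi they summed to 1209 to 1449, 1317 to 1609, 1438 to 2195 and 1091 to 1528 FPKM. Their median r was 0.60 with saa and 0.50 with irg1l. Log2 differences were above 0 for 6, 9, 9 and 9 of the 9, with medians of 0.57, 0.44, 0.91 and 0.66. For the 18 macrophage markers they were above 0 for 16, 17, 18 and 18, with medians of 0.52, 0.76, 1.14 and 0.93. Of the neutrophil markers 1, 1, 1 and 0 passed as higher. Counts this low cannot be set apart from the shares of all genes. At 5 dpi 0 neutrophil markers passed as higher in every fit without 1 of the samples. The called ones were illr4 at 1 dpi (0.97), cfl1l at 3 dpi (1.36) and si:ch211-117m20.5 at 5 dpi (3.13), with limma adjusted p = 0.044, 0.04 and 0.034. The part of these cells in the levels of saa and irg1l was not tested. In whole tissue a change in the number of cells of a type and a change in RNA per cell cannot be told apart.

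Against uninjured kidneys, pancreas, ovary, and skin and intestine markers, 19, 21 and 13 genes, had at most 2 genes higher and 1 lower at any time point. Median log2 differences at 1, 3, 5 and 7 dpi were 0.61, -0.10, -1.70 and -0.62 for pancreas. For ovary they were -1.85, -2.93, -1.85 and -0.81, and for skin and intestine 0.33, -0.09, -0.26 and -0.02. Ovary sums ran from 4.51 to 2988 FPKM among uninjured samples, so few calls do not show equal levels. The summed skin and intestine level had r = -0.77 with irg1l and -0.30 with saa over 15 samples, that of ovary -0.07 and -0.15, and that of pancreas -0.08 and -0.28. The skin and intestine sum was 94.6 to 178 FPKM in uninjured kidneys and 202 to 252 FPKM at 1 dpi, against 62.3 to 135 FPKM later. Its part in the levels of irg1l was not tested. The 7 lists of inflammation, the itaconate route, stress regulators and white blood cells together held 141 genes. Of these, 42, 35, 46 and 33 passed in either direction at 1, 3, 5 and 7 dpi. Of all 5685 genes, 1127, 757, 464 and 975 did. The genes pck2, aco1 and gapdh, lower at 1 and 7 dpi, are among the 141. Whether the lists differ from all genes was not tested. The counts of the 141 genes rested on the full sets of samples. Without 1 sample the lowest of these counts were 26, 5, 0 and 0 and the highest 38, 35, 20 and 37, with 0 reached at 5 dpi without uninjured sample 1, uninjured sample 2 or 5 dpi sample 2, and at 7 dpi without any 1 of its 3 samples. The other counts more than 1.5 times lower were 26 at 1 dpi without uninjured sample 1, then at 3 dpi 6 and 15 without uninjured samples 1 and 3 and 21, 5 and 10 without 3 dpi samples 1, 2 and 3. At 5 dpi they were 13 without uninjured sample 3 and 20 and 2 without 5 dpi samples 1 and 3, and at 7 dpi 7 and 13 without uninjured samples 1 and 3. Of 69 calls against uninjured kidneys of irg1 and the named list genes, 11 held in all 6 fits without 1 of the samples and 13 were lost in every such fit. The 11 were cebpb, tnfaip3, nfkbiaa, ccl34a.4, cxcl18b, pglyrp6, atf3, ddit3 and sqstm1 at 1 dpi and il11a and atf3 at 3 dpi. The 13 were cp, CXCL8 and cd74a at 5 and 7 dpi, tnfaip3, nfkbiaa, il1b, tnfa, ms4a17a.11 and si:ch211-117m20.5 at 5 dpi, and pck2 at 3 dpi. Without uninjured sample 1, 15 of the 69 held, and without uninjured sample 3, 31. Without 5 dpi sample 1, 10 of 19 calls at 5 dpi held, and without 1 dpi sample 2, 13 of 16 at 1 dpi.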

How the data were processed

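Kidney RNA of 15 samples in 5 groups of 3 was analysed, with groups and sample numbers taken from the treatment labels. The authors deposited FPKM: 150 bp paired-end poly(A) reads were cleaned with in-house scripts, assembled with StringTie 1.3.3b, counted per gene with featureCounts 1.5.0-p3 and scaled to the length of each gene and the size of each library. The aligner and annotation release are not given in the sources used here. Whole reads were recovered for 99.98% of genes (within 0.03 reads). The authors' numeric gene group and annotation columns were not used as measurements. A gene's FPKM is a share of its library, so a change in abundant genes moves all others.

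Tests used limma 3.58.1 in R 4.3.3 (lmFit, eBayes with trend, two-sided) on log2(FPKM + 1), which understates changes of genes at low FPKM, over 5685 genes above 0 FPKM in at least 3 samples, on the 6 samples of the groups compared, with Benjamini-Hochberg adjustment and a threshold of 0.05. The fit was tested on simulated data with independent counts, the same spread setting for all genes and no libraries that stood apart. That test cannot show how such libraries affect the calls here. The exact permutation test used scipy 1.17.1. P-values measure the spread between these samples.

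The genes and the lists were chosen with earlier results of these data known. Named were saa, irg1l, the 6 genes most like each, and up to 4 genes per list passing at the most time points, then by size. Exceptions are named as such. Of the 504 list entries, 247 were in the table. Symbols were taken from the table; CXCL8 and si:ch211-117m20.5 are given as it spells them. Same-numbered samples of different groups were not treated as pairs: no comparison had all 3 correlations of same-numbered samples above 0.1. Single correlations ran from -0.781 to 0.767, so this check does not show that same-numbered samples are unrelated.

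The fits were repeated with all genes, with genes of mean 1 FPKM or more, with 0.1 in place of 1 as pseudocount, without trend, after quantile normalization or median-of-ratios scaling, on all 15 samples, with a replicate block, with limma voom on recovered reads, and without each sample in turn.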

Additional observations from a re-analysis of the deposited data

Results flagged for a closer look

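The change of both genes between injured groups differed with the time points compared. From 1 to 3 dpi saa had a log2 difference of -1.34 and irg1l one of 3.23 in the same 6 samples, each past the limma test across all genes (limma adjusted p = 0.04 and 0.019). From 1 to 5 dpi irg1l had a log2 difference of 4.17 (limma adjusted p = 0.00056). In each case all 3 samples of the later group lay on 1 side of all 3 at 1 dpi. The share of all genes so separated was not counted. From 1 to 3 dpi the call of saa was lost in 4 of 9 alternatives that kept every sample. It was also lost in 5 of 6 fits without 1 sample. That of irg1l was lost in 0 of 9 and 2 of 6.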

How the results depend on the processing

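Of the tests between injured groups, the rise of irg1l from 1 to 5 dpi passed under all 15 alternatives (log2 differences 4.02 to 6.42). Its rise from 1 to 3 dpi passed under all 9 alternatives that kept every sample (3.23 to 5.37, with 4.90 at a pseudocount of 0.1 and 5.37 with voom on recovered reads), and was 2.57 to 3.95 without 1 sample. The fall of saa from 1 to 3 dpi was -1.24 with median-of-ratios scaling, -1.06 with quantile normalization, and -1.34 with all 15 samples or the replicate block, none past the limma threshold, and -1.63 to -1.08 without 1 sample. The cause was not tested. The 3 other tests stayed short of the threshold. The agreement within groups was -0.29 with the replicate block.

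With the replicate block, 23, 0, 0 and 0 of the 141 listed genes passed at 1, 3, 5 and 7 dpi, against 42, 35, 46 and 33 without it, and with all 15 samples in the fit 57 passed at 3 dpi. Without 1 sample the ranges were 26 to 38, 5 to 35, 0 to 20 and 0 to 37. Over all genes, 1127, 757, 464 and 975 passed against uninjured kidneys, and with the block 314, 0, 0 and 0 (limma; 1650, 1805, 1713 and 1801 at an unadjusted p below 0.05, against 2146, 2161, 1723 and 2051). With all 15 samples 1987, 1493 and 1063 passed at 1, 3 and 5 dpi, and with quantile normalization 571 at 7 dpi. Between 5 and 1 dpi 1819 passed (714 with the block), between 7 and 3 dpi 951 (525 with the block, 374 with all samples), and between 5 and 3 dpi 4 (13 with a pseudocount of 0.1, 7 with a mean of 1 FPKM or more, 174 with all samples, and 0 with the block, where 984 had an unadjusted p below 0.05). For irg1 and the named list genes, 1916 repeats covered 128 results, passed or not. None of these repeats reversed a call, 361 lost one and 36 gained one. Only results that passed with all samples, the 69 calls above among them, could lose a call, so 361 is not to be read against all 1916.

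Depth limits irg1l most: 1 read in an uninjured sample and 3 reads in a 1 dpi sample lie at or under the floor. With 3 samples a group, differences as wide as the 95% interval of irg1l between 5 and 3 dpi, -0.68 to 2.56 on the log2 scale, could not be narrowed.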
